A study of Mus musculus with 4 samples.

Results

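The cells described here are limb cells that carry transcripts of 1 or more of the osteogenic genes Runx2, Alpl, Dlx5, Sp7 and Ibsp. They hold at most 1 unique molecule (UMI) of the cartilage genes Matn1 and Acan and none of the hypertrophic genes Ihh, Panx3 and Col10a1. They were chosen by these measured counts. A kept cell had 200 to 6000 detected genes and at most 10% of its UMIs from the mitochondrial genome. A member held 4 or more UMIs summed over Runx2, Sp7, Alpl, Dlx5 and Ibsp, at most 1 UMI summed over Matn1 and Acan, and 0 over Ihh, Panx3 and Col10a1. The rule found 829 cells among 44320 kept cells (1.87%), out of 45768 barcodes.

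The study dissected presumptive knee joint regions from mouse hindlimb cartilage anlagen, released the cells with collagenase D and made 4 droplet 3′ RNA libraries. The E13.5 control and the E14.5 control have the titles E13.5WT and E14.5WT. The paper describes the control embryos of E14.5 as without Cre. The third library, of E14.5, has the label Prx1Cre;Glut1f/f;Glut3f/+ and is written as the library labelled Glut3f/+. The fourth, also of E14.5, has the label DCKO, which stands for Prx1Cre;Glut1f/f;Glut3f/f. Glut1 and Glut3 are the glucose transporters encoded by Slc2a1 and Slc2a3, and Prx1Cre is active in limb bud mesenchyme, so other limb lineages keep their floxed alleles. The labels give the tissue as interzone, name no strain and do not state how many embryos were pooled. In the order E13.5 control, E14.5 control, Glut3f/+ and DCKO, which is kept for every series of 4 values, the libraries held 100344565, 84188147, 97110697 and 91574038 UMIs. There was 1 library per group, so no value has a replicate, no library could be left out of its group, and each interval is a 95% interval for counting error only.

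Slc2a1 went against both mutant labels. Its level in members, in counts per 1000000 UMIs summed over cells (CPM), was 32.7, 19.2, 72.9 and 99.1, so the libraries labelled with a Glut1 deletion were the high ones. A 3′ tag may lie outside the deleted stretch, so these counts check no deletion, and both groups are named by their labels throughout. The sex of the cells also differed between libraries. Xist, transcribed from the inactive X chromosome, stood at 700.1, 1.20, 1052 and 1145 CPM in members, and the Y-linked Ddx3y at 24.0, 72.0, 0 and 0 CPM. The E14.5 control was therefore the library with next to no Xist, and sex cannot be told apart from age or genotype in comparisons with it. From 25 to 40 barcodes were shared by any pair of libraries (0.211% to 0.381%), and 0 of them were members in both.

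Bone of the limb begins around cartilage. Mesenchymal cells of the perichondrium, the sheath that encloses a cartilage element, switch on Runx2 and then Sp7 and become osteoblasts, under the influence of Indian hedgehog released by prehypertrophic chondrocytes and of Wnt signals. Alkaline phosphatase comes early in this course, while bone sialoprotein and osteocalcin mark cells that mineralize matrix; Runx2 and Alpl are also found in fibrous perichondrium.

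Members were more frequent at E13.5. They numbered 491, 92, 137 and 109 cells, which was 3.95% (exact Clopper-Pearson interval 3.61% to 4.30%), 0.989% (0.798% to 1.21%), 1.22% (1.02% to 1.44%) and 0.964% (0.792% to 1.16%) of kept cells. The E13.5 share lay above those of the 3 other libraries, whose intervals overlapped. Members of the E13.5 control were also read more deeply, with median UMIs per member of 8187, 7493, 6230 and 5930, against 6176.5, 7279, 6757 and 6379 in all kept cells. With each cell thinned to 3000 UMIs before the rule was applied the shares were 1.05%, 0.284%, 0.337% and 0.263%, lower in each library and again highest at E13.5. These are the values of the random draw that was used. Over 100 draws the mean shares were 1.02%, 0.217%, 0.388% and 0.304%, with the E14.5 control lowest in place of the library labelled DCKO. The E14.5 control held 10 to 26 members over these draws. How much of the difference between ages comes from which regions were cut out cannot be told apart from age.

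The rule was applied in steps, and each step removed cells. A summed count of 4 or more was found in 1130, 275, 393 and 305 kept cells. Matn1 and Acan, a matrilin and the large proteoglycan of cartilage, removed 597, 179, 248 and 192 of these, and the hypertrophic genes a further 42, 4, 8 and 4. Most cells that reached the osteogenic sum thus held more than 1 UMI of these cartilage genes. The median sum in members was 5 UMIs in every library, and the highest was 32, 16, 18 and 13. At least 2 of the 5 rule genes were present in 78.2%, 88.0%, 92.7% and 93.6% of members. Cells just outside the threshold, with a sum of 3, numbered 228, 40, 75 and 89, and cells just inside it, with a sum of 4, numbered 170, 37, 58 and 49. Col1a1, the main chain of type I collagen, was at 441, 3612, 3390 and 2766 CPM just outside and 495, 3467, 4552 and 2876 CPM just inside.

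**Figure D1:**
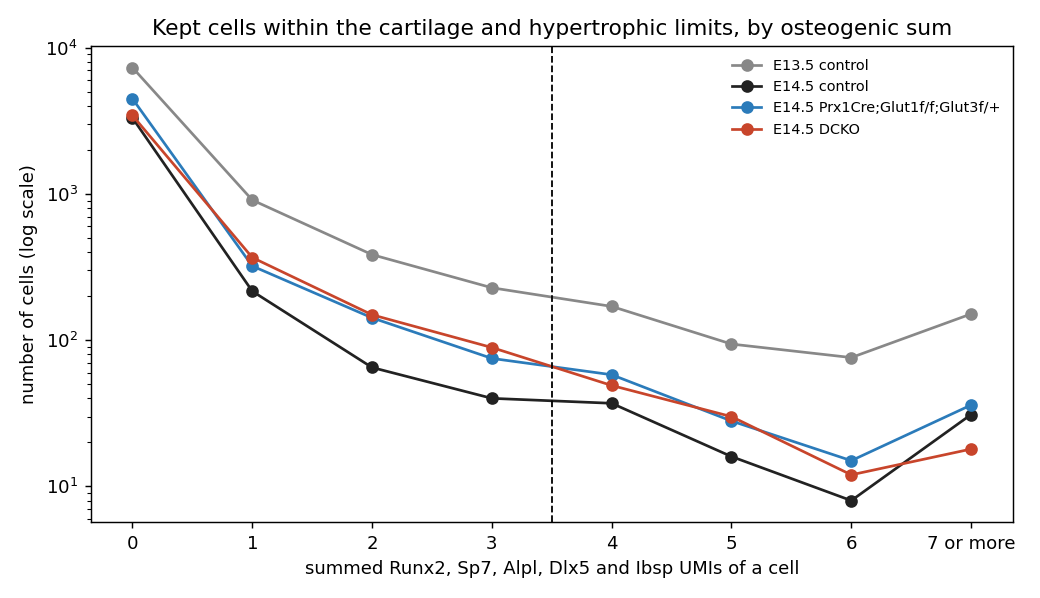
Number of kept cells within the cartilage and hypertrophic limits (y axis, log scale) against their summed UMIs of Runx2, Sp7, Alpl, Dlx5 and Ibsp (x axis), with 1 line per library and a dashed line at the threshold for members. From a sum of 3 to a sum of 4 the counts go from 228 to 170 cells in the E13.5 control and from 40 to 37 cells in the E14.5 control, with no gap between them.

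Runx2 and Alpl took different shares of the selection at the 2 ages. Runx2 (ENSMUSG00000039153, chr17:44495987-44814797, GRCm38), the transcription factor that osteoblast formation requires, was at 365, 254, 287 and 254 CPM in members. It was seen in 95.5%, 80.4%, 88.3% and 79.8% of them, against 5.67%, 2.0%, 3.93% and 3.39% of muscle cells of the same libraries, which were deeper (medians 11116, 14357.5, 13628 and 10763 UMIs). The E13.5 control was the highest library for Runx2. Alpl (ENSMUSG00000028766, chr4:137741733-137796384), the alkaline phosphatase that releases phosphate for mineral, was at 72.5, 211, 277 and 242 CPM, found in 39.7%, 76.1%, 83.2% and 74.3% of members and in 3.97%, 4.00%, 5.36% and 1.69% of muscle cells. Its level was low at E13.5 and high in the 3 libraries of E14.5. Runx2 and Alpl were in the same cell in 37.9%, 59.8%, 73.7% and 56.9% of members. These are the genes that chose the cells, so the values describe the selection.

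The other rule genes were steadier or rare. Dlx5 (ENSMUSG00000029755, chr6:6877805-6882085), a homeobox factor of early osteogenic and perichondrial cells, was at 175, 162, 172 and 207 CPM and shared a cell with Runx2 in 63.3%, 54.3%, 60.6% and 58.7% of members. Sp7, the zinc finger factor that commits cells to the osteoblast line, was at 25.2, 21.6, 29.5 and 25.7 CPM and found in 19.8%, 17.4%, 18.2% and 15.6% of members. Ibsp, bone sialoprotein, was nearly absent, at 0.208, 7.20, 14.8 and 0 CPM. No Ibsp UMI was found in 109 members of the library labelled DCKO, which allows a share of up to 3.33% of cells with a UMI.

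Bglap, Mepe and Mmp13 were at or near 0. Osteocalcin is made from the near-identical copies Bglap, Bglap2 and Bglap3, whose counts are uncertain for that reason; Bglap stood at 2.29 CPM at E13.5 and at 0 in the 3 other libraries. Mepe, an osteocyte matrix protein, and Mmp13, the collagenase of late hypertrophic cartilage and osteoblasts, were at 0 in members of every library. Ifitm5, a membrane protein of osteoblasts, was at 7.08, 7.20, 9.85 and 2.57 CPM. The cells are called Runx2, Alpl and Dlx5 cells below.

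Genes were ranked by their level in the Runx2, Alpl and Dlx5 cells relative to other kept cells. Among 2356 genes at 50 CPM or more in members of every library, with rule, listed sex-linked, mitochondrial and haemoglobin genes left out, the lowest of the 4 log2 ratios to other kept cells was greatest for Maf (2.69), Aspn (2.05), Rora (1.89), Bicc1 (1.79), Prrx1 (1.78) and Col8a2 (1.59), followed by S100a6, Colec12, Krt18, Ifitm3, Nrp2 and Wnt5a (1.53 down to 1.35). The rule chose cells on this contrast, so these are descriptions with no test.

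Maf (ENSMUSG00000055435, chr8:115682942-115707794) encodes a leucine zipper transcription factor and was at 210, 282, 427 and 274 CPM in members. Other kept cells had 32.4, 26.7, 37.9 and 24.6 CPM. Chondrocytes, taken as cells with 4 or more UMIs of Matn1 and Acan and at most 1 of the osteogenic rule genes, had 8.99, 7.52, 10.8 and 7.13 CPM, and connective tissue cells, taken as cells with 4 or more UMIs of Dcn and Lum, 22.1, 55.8, 62.1 and 58.9 CPM. Members were high in every library and chondrocytes low in every library. S100a6 was at 109, 173, 213 and 149 CPM in members and 47.3, 176, 198 and 77.2 CPM in connective tissue cells. In the E14.5 control it was thus no higher in members than in connective tissue cells. The remaining leading genes were higher in members than in connective tissue cells in each library.

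Prrx1, the limb mesenchyme homeobox gene whose enhancer gives Prx1Cre its name, was at 879, 579, 637 and 597 CPM in members and 256, 127, 99.2 and 98.4 CPM in other kept cells. Wnt5a, a secreted ligand of growing limb ends and perichondrium, was at 147, 132, 157 and 174 CPM against 58.0, 28.0, 32.4 and 28.2 CPM. Nrp2, a co-receptor for semaphorins and vascular growth factors, was at 201, 311, 361 and 382 CPM in members, and Bicc1, an RNA-binding protein, at 189, 242, 314 and 250 CPM. Both were lowest at E13.5.

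Mmp9, a gelatinase best known from osteoclasts, was detected in members at 17.7, 31.2, 67.9 and 36.0 CPM. Chondrocytes had at most 1.09 CPM and connective tissue cells at most 8.85 CPM of it. Of 5 macrophage markers 3, 0, 2 and 1 were detected, Ptprc and C1qa were at 0 in every library, and the summed level was 1.25, 0, 1.97 and 1.29 CPM. Acp5, an osteoclast enzyme, was at 3.75, 12, 4.92 and 6.44 CPM.

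Promoters were searched for ACCACA and its reverse complement TGTGGT, the core letters bound by Runx factors, on both strands of the 300 bases given by RefSeq (GRCm38.p6) for each start. Of the 12 leading genes 8 matched an entry, and 1 of the 8 promoters (12.5%) held the letters, against 5506 of 32851 promoters of all genes (16.8%). Of the 5 rule genes 3 matched, with 4 promoters, of which 1 held them. Those with the letters are shown because one belongs to Runx2 itself and the other to a leading gene, S100a6, a calcium-binding protein; each has 3 copies, in capitals. The Runx2 stretch is chr17:44814578-44814877 on the minus strand and the S100a6 stretch chr3:90612644-90612943 on the plus strand.
Runx2: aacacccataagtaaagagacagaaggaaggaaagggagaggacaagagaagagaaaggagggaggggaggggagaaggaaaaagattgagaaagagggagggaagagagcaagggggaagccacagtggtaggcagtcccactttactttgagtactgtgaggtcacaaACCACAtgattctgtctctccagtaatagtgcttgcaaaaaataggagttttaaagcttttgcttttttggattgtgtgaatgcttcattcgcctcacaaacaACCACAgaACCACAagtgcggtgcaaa
S100a6: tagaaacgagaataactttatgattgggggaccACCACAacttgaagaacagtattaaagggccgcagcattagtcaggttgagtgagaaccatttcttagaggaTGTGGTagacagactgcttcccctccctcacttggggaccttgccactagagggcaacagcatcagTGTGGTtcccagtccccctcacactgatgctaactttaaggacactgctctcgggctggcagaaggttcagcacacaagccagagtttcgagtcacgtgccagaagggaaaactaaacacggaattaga

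Members with an Sp7 or Ibsp UMI numbered 98, 17, 28 and 17 (20.0%, 18.5%, 20.4% and 15.6% of members). Their median depth was 8359, 8217, 7015.5 and 5585 UMIs, against 8175, 7281, 6114 and 6004 in members with neither. Of the genes compared other than rule genes, Spp1, the secreted phosphoprotein osteopontin, was the one whose interval lay above 0 in each library. It was at 129, 40.9, 39.9 and 119 CPM with Sp7 or Ibsp and 33.8, 9.06, 11.4 and 22.8 CPM without, log2 ratios of 1.93 (1.57 to 2.30), 2.18 (0.38 to 4.02), 1.81 (0.30 to 3.32) and 2.38 (1.22 to 3.54). Mef2c, a factor of chondrocyte hypertrophy, was at 326, 234, 253 and 305 CPM with and 146, 133, 191 and 150 CPM without. The interval of its ratio included 0 in the library labelled Glut3f/+ (−0.06 to 0.85). Ifitm5 had 12, 6, 8 and 1 UMIs with and 22, 0, 2 and 1 UMIs without, and its intervals at E13.5 (−0.07 to 2.16) and in the library labelled DCKO (−3.81 to 8.78) included 0. Other bone genes were mixed. Col1a2 (0.09, 0.18, 0.05 and 0.29) and Col24a1 (1.85, 0.95, 0.35 and 1.48) lay above 0 in each library. The interval of Col24a1 lay off 0 at E13.5 (1.19 to 2.51) and included 0 in the other libraries. Col1a1 had 0.55 (0.44 to 0.67), 0.03 (−0.10 to 0.16), 0.13 (0.03 to 0.23) and 0.22 (0.06 to 0.37), Sparc −0.14, −0.17, 0.04 and 0.37, and Serpinf1 −0.26, 0.09, 0.02 and 0.07. Prehypertrophic cells had 14.8, 114, 182 and 32.4 CPM of Spp1, less than all members in the E13.5 control and in the library labelled DCKO and more in the others. They had more Mef2c (746, 407, 586 and 352 CPM) and more Ifitm5 (136, 33.0, 123 and 18.4 CPM) than all members had, and their part in these differences was not tested.

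The change from E13.5 to E14.5 in control cells asks how these cells differ shortly before a bone collar forms. The Runx2, Alpl and Dlx5 cells of E14.5 had more transcript of Col1a1, Col1a2, Postn and Thbs2, and less of Id1. A gene was tested if it reached 20 CPM and 20 UMIs in 1 of the groups, and called if its levels were also at least 2-fold apart. Of 6333 genes tested, 200 (3.16%) were called higher and 413 (6.52%) lower at E14.5, and the interval of each lay off 0. Counts of called genes in the lists of this comparison are to be read beside these shares. The median log2 ratio of all genes tested was −0.22. TMM scaling moved it to −0.08 and the calls to 273 higher and 273 lower, so the excess of lower over higher calls was gone. The excess was larger with 6 or more UMIs of the rule genes, at 144 higher and 644 lower. It was also larger with no UMI of Matn1 or Acan (145 and 593) and with cells thinned to 3000 UMIs (91 and 586). The E14.5 sums are the smaller ones, 72000 against 345000 UMIs in thinned cells. Genes thus reach 20 UMIs more often through the E13.5 group, which favours lower calls. The size of the excess in these settings therefore cannot be compared with that above. In other kept cells, whose sums hold far more UMIs, 183 of 6360 genes were called higher and 161 lower, with a median of −0.11.

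Type I collagen led the bone matrix genes. Col1a1 (ENSMUSG00000001506, chr11:94936224-94953042) was at 628 CPM at E13.5 and 3545 CPM at E14.5, a log2 ratio of 2.50 (2.42 to 2.57), against 1.23 in other kept cells. Col1a2, the partner chain, rose from 740 to 2657 CPM (1.84, 1.77 to 1.92), and Sparc, a collagen-binding glycoprotein of bone, from 316 to 1154 CPM (1.87, 1.75 to 1.99). Spp1 went the other way, from 53.3 to 15.6 CPM (−1.77, −2.70 to −0.97). Of 22 genes of bone matrix and mineralization 7 could be tested, 3 were called higher and 1 lower, and their median was 0.88, against 0.93 in other kept cells and −0.22 over all genes. The median of the list was 1.97 with cells thinned to 3000 UMIs.

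Of 11 genes of perichondrium and periosteum 9 could be tested at E14.5 against E13.5, 4 were called higher and 0 lower, with a median log2 ratio of 0.78 (0.66 in other kept cells); the median of the perichondrium and periosteum list was 0.39 in cells with 6 or more UMIs of the rule genes. Postn (ENSMUSG00000027750, chr3:54361109-54391037), periostin of the periosteum, rose from 17.1 to 200.3 CPM (3.55, 3.16 to 3.95), although 1 cell held 25.7% of its E14.5 UMIs. Connective tissue cells had more Postn than members in each library, at 132, 391, 526 and 457 CPM. Thbs2, a thrombospondin of connective tissue, rose from 42.9 to 205 CPM (2.26, 1.96 to 2.56). In connective tissue cells Thbs2 rose too, from 12.1 to 61.9 CPM. The fibril-associated collagens rose as well, Col12a1 from 107 to 451 CPM (2.08, 1.88 to 2.28) and Col14a1 from 11.0 to 99.6 CPM (3.17, 2.66 to 3.70). All 4 genes remained high in the other E14.5 libraries, at 162 CPM or more for Postn and 120 CPM or more for Col14a1.

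**Figure D2:**
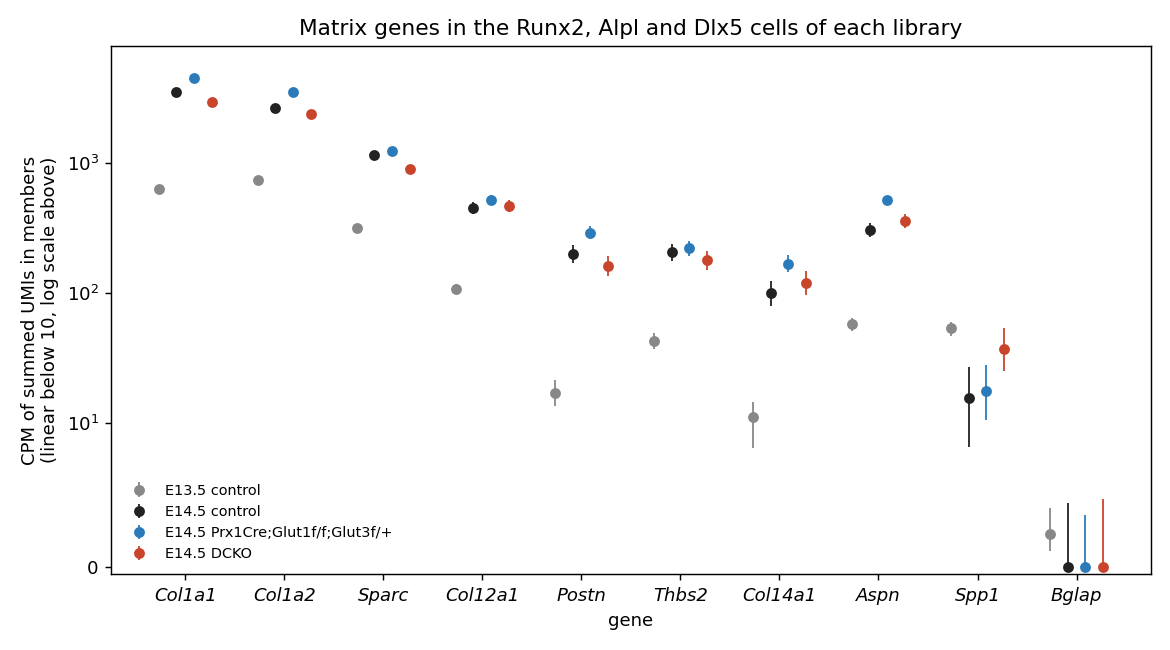
Level of 10 matrix genes (x axis) in members, in CPM (y axis, linear below 10 and log scale above), with 1 point per library and bars for the exact Poisson 95% interval. Col1a1 goes from 628 CPM in the E13.5 control to 3545 CPM in the E14.5 control, Spp1 goes from 53.3 to 15.6 CPM, and Bglap is at 0 in the libraries of E14.5.

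Several matrix and growth factor genes outside these lists showed the same direction. Aspn (ENSMUSG00000021388, chr13:49544443-49567565), asporin, a collagen-binding leucine-rich protein, was at 57.3, 308, 516 and 360 CPM in the 4 libraries, with a log2 ratio between the controls of 2.43 (2.18 to 2.68) against 0.84 in other kept cells. Connective tissue cells had 30.8, 136, 173 and 204 CPM of Aspn, so it rose between the control ages there as well. Ctsk, a collagen-degrading protease of osteoclasts and fibroblasts, was at 25.4, 170.4, 185 and 149 CPM (2.75, 2.39 to 3.11). It was the most abundant of the 3 osteoclast markers, all of which were detected in each library, and their summed level was 46.9, 214, 258 and 192 CPM. Igf1, insulin-like growth factor, rose from 20.8 to 108 CPM (2.37) and Igfbp5, its binding protein, from 210.0 to 745 CPM (1.83). E13.5 was the low library for each of these genes, and the 3 libraries of E14.5 were high.

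Among genes at 50 CPM with UMIs at both ages, Ecrg4 rose the most. Ecrg4 (ENSMUSG00000026051, chr1:43730602-43742578), a secreted peptide precursor of cartilage and other tissues, went from 2.92 to 365 CPM (6.97, 6.20 to 7.85). Other kept cells showed 5.61. Fmo1, a flavin monooxygenase, rose from 1.25 to 67.2 CPM, Fndc1, a fibronectin-repeat protein, from 6.25 to 69.6 CPM, and Htra1, a secreted serine protease, from 6.25 to 64.8 CPM. Ifi27 (3.36) and Rpl39l (2.97) completed the list of 10 with Gm32913, whose 54 UMIs all came from 1 cell and whose log2 ratio of at least 6.70 was a bound against 0 UMIs.

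The transcription factors of the skeleton split. Of 18 factors 14 could be tested, 2 were called higher and 3 lower, with a median of −0.15. Over all genes tested 3.16% were called higher and 6.52% lower. Twist1, a basic helix-loop-helix factor that restrains osteoblast maturation, rose from 205 to 469 CPM (1.20, 1.02 to 1.37), while other kept cells had −0.30. Dlx6, the neighbour of Dlx5, rose from 16.7 to 37.2 CPM (1.16, 0.51 to 1.77). Twist2 fell from 152 to 55.2 CPM (−1.46), Runx3, a factor of chondrocyte maturation, from 128 to 37.2 CPM (−1.78) and Sox11, a factor of mesenchymal progenitors, from 262 to 118 CPM (−1.16). Both Twist genes thus changed, in opposite directions.

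Id1 (ENSMUSG00000042745, chr2:152736251-152737410), an inhibitor of helix-loop-helix factors induced by Bmp, fell from 622 to 133 CPM (−2.22, −2.51 to −1.95) in members and stood at 488 and 390 CPM in other kept cells. Id3 fell from 1192 to 588 CPM (−1.02, −1.16 to −0.89). They were the only called genes of 11 tested of 17 in the Bmp list, whose median was −0.48, and with TMM factors Id3 came to −0.88 and was not called. Members were high in Id1 at E13.5 and low in the 3 libraries of E14.5, where they had 133, 129 and 109 CPM.

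Ptch1, the Hedgehog receptor and a target of Indian hedgehog, was at 274, 182, 194 and 151 CPM, above the 145, 102, 101 and 87.1 CPM of other kept cells in each library. Its ratio between the controls was −0.59 (−0.84 to −0.34), against −0.51 in other kept cells. Gli1, a target and effector, was at 42.5, 36.0, 49.2 and 39.9 CPM against 22.7, 19.2, 19.3 and 17.2 CPM. Of 12 Hedgehog genes 7 could be tested and 0 were called at E14.5 against E13.5, with a median of −0.17. Pth1r, the receptor of parathyroid hormone-related protein, was at 105, 92.4, 85.7 and 73.4 CPM.

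Of 18 Wnt genes 8 were tested and 2 were called higher, the secreted protein Dkk3 (log2 ratio 2.26, 1.71 to 2.80) and the intracellular inhibitor Nkd1 (15.2 to 32.4 CPM), with a median of −0.05. Of 11 Fgf genes 8 were tested and 1 was called lower, Etv4, a transcription factor induced by Fgf, from 35.0 to 7.20 CPM (−2.28, −3.75 to −1.13). The receptor Fgfr2 was at 81.4, 151, 163 and 144 CPM, and the ligand Fgf18 at 29.4, 50.4, 39.4 and 38.6 CPM. Igf1 and Igfbp5 were the 2 genes called higher of 8 tested of 9 in the list of parathyroid hormone and insulin-like growth factor signals, median 0.23.

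All 15 cell cycle genes could be tested between the ages and had ratios below 0, 8 were called lower, and the median was −1.0, against −0.30 in other kept cells and −0.22 over all genes. With TMM factors 4 of the 15 were called lower, and with 6 or more UMIs of the rule genes required, the median of the cell cycle list was −0.66. Ube2c, a ubiquitin ligase component of mitosis, fell from 568 to 160 CPM (−1.83, −2.10 to −1.58), and Mki67, a marker of proliferation, stood at 171 and 97.2 CPM (−0.81). The histone gene Hist1h2ap fell from 598 to 63.6 CPM (−3.23), with −3.36 in other kept cells.

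Other large falls were those of Pcp4, a calmodulin regulator (101 to 2.40 CPM), Hoxa11os, antisense to the limb gene Hoxa11 (83.9 to 0 CPM, at least 23.3-fold), AA465934 (56.0 to 0 CPM, at least 15.6-fold), Ralgps2, Mllt3, Nnat, an imprinted membrane protein (592 to 80.4 CPM), Limch1, Fibin and Tshz1. Fibin, a secreted limb protein, moved the other way in other kept cells, from 256 to 413 CPM. Thinning to 3000 UMIs left 24 members of the E14.5 control, with 0 UMIs of Pcp4, Hoxa11os, Ralgps2, AA465934, Mllt3, Fibin and Tshz1, too few for a ratio.

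Markers of other cells also differed between the ages. Of 7 erythroid markers 7, 5, 5 and 5 were detected in members, with a summed level of 1508, 51.6, 51.2 and 28.3 CPM and a UMI in 51.3%, 34.8%, 28.5% and 17.4% of members; Hbb-y, an embryonic globin, led at E13.5 (968 CPM), and globin counts are uncertain between near-identical copies. Of 5 connective tissue fibroblast markers Lum and Col3a1 were called higher and Dcn lower, with summed levels of 966, 2125, 2913 and 2546 CPM. Chondrocyte markers other than Matn1 and Acan had a median of −0.17 in members against 1.61 in other kept cells; the rule limits cartilage transcripts in members, so this contrast is set in part by the selection. With Matn1 and Acan their summed level was 1035, 953, 913 and 1472 CPM, and Col2a1 was the most abundant gene. Interzone markers summed to 326, 270, 124 and 190 CPM and tendon markers to 114, 131, 143 and 70.8 CPM. Their part in the differences between ages was not tested.

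The libraries labelled with deletions of the glucose transporters were compared with the same E14.5 control, so both comparisons share its 92 members. They ask how deletion of the transporters in limb mesenchyme bears on these cells. Slc2a1 was among the genes called. Of 5883 genes tested in the library labelled Glut3f/+, 104 (1.77%) were called higher and 107 (1.82%) lower, of which 85 and 93 had an interval off 0. Of 5596 in the library labelled DCKO, 116 (2.07%) were called higher and 91 (1.63%) lower, 110 and 78 with an interval off 0. The medians over all genes tested were −0.05 and −0.00. The balance of both comparisons differed with the rule. At 3 or more UMIs of the rule genes the first had 31 higher and 69 lower, of which 23 and 37 were among the calls above. The second had 65 higher and 90 lower, of which 38 and 38 were among the calls above. Thinning left 24, 34 and 26 members of the E14.5 libraries, in which only 1 of the 104, 0 of the 107, 3 of the 116 and 1 of the 91 called genes could be tested, so thinned cells do not check these calls. In other kept cells 13 of 5944 genes were called higher and 10 lower, and 34 of 5935 higher and 54 lower. Their sums hold far more UMIs, and small counts pass 2-fold more readily by counting error. These shares therefore cannot be compared directly with those of members.

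Slc2a1 (ENSMUSG00000028645, chr4:119108711-119137983) was counted 16 times in members of the E14.5 control, against 74 times in the library labelled Glut3f/+ and 77 times in that labelled DCKO. Its log2 ratios were 1.92 (1.13 to 2.80) and 2.37 (1.58 to 3.24), against 2.39 and 2.73 in other kept cells. Chondrocytes had more of it, with 80.7, 81.2, 469 and 495 CPM, connective tissue cells had 27.3, 25.8, 110 and 126 CPM, and muscle cells 27.8, 25.1, 63.3 and 55.0 CPM. The 2 labelled libraries were high in each of these cell types. Matn1 was seen in 7.75%, 16.0%, 18.2% and 15.3% of muscle cells, and the part of RNA carried over between cells was not tested. With no UMI of Matn1 or Acan allowed the Slc2a1 ratios were 0.99 and 1.41. Members thinned to 3000 UMIs held 3, 10 and 4 UMIs of Slc2a1 in the libraries of E14.5, and the intervals of both ratios included 0. Slc2a3 was rare everywhere in members, at 6.67, 3.60, 3.94 and 2.57 CPM.

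Asns, asparagine synthetase and a classic target of ATF4, the transcription factor of amino acid shortage, was at 43.5, 28.8, 36.4 and 30.9 CPM in members, 41.2, 40.4, 104 and 211 CPM in chondrocytes and 49.0, 69.1, 234 and 371 CPM in prehypertrophic cells. Against the E14.5 control the log2 ratios in members were 0.34 (−0.44 to 1.14) and 0.10 (−0.78 to 0.98). Both intervals of members included 0. The library labelled DCKO also lay above the control in connective tissue cells, at 46.1 against 23.2 CPM (0.99, 0.57 to 1.41), and in muscle cells, at 38.2 against 18.3 CPM (1.06, 0.32 to 1.77). Of 17 ATF4 targets 10 and 9 could be tested in members, 0 were called higher in either comparison, and the medians were −0.12 and −0.17; at the 1.77% and 2.07% called higher over all genes, the number expected of a list of this size is 0 to the nearest whole. In other kept cells 1 of 12 and 5 of 13 were called higher, with medians of 0.55 and 0.95, and in connective tissue cells the medians were 0.04 and 0.21. Aars and Wars, transfer RNA synthetases, were called lower in the library labelled DCKO (26.4 to 7.72 and 27.6 to 11.6 CPM). The difference between members and the other cells was not tested.

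**Figure D3:**
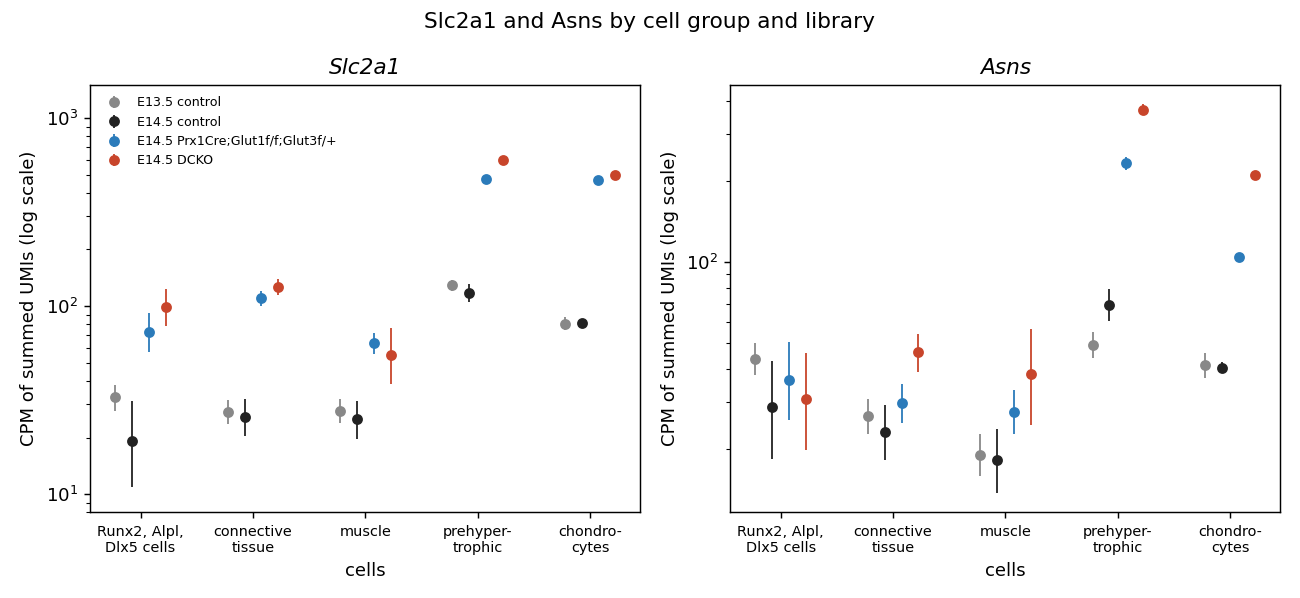
Level of Slc2a1 and of Asns in CPM (y axes, log scale) in members and in 4 other cell groups (x axes), with 1 point per library and bars for the exact Poisson 95% interval. Slc2a1 is higher in the labelled libraries in every cell group shown, while Asns in members is at 28.8, 36.4 and 30.9 CPM in the 3 libraries of E14.5.

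Of 16 glycolysis genes 13 and 12 could be tested in members, with medians of −0.22 and −0.21, against 0.07 and 0.24 in other kept cells. In the first comparison 1 was called in each direction, Pfkm and Hk1, with intervals that include 0, and in the second 0 were called. Ldha, which makes lactate from pyruvate, was at 561, 518, 396 and 380 CPM. Between the controls, Hk2 (37.7 to 80.4 CPM) had been called higher and Eno1 (242 to 75.6 CPM; counts shared with the near-identical copy Eno1b are uncertain) lower. Of 14 targets of the hypoxia factor HIF, 9 and 8 could be tested, with medians of −0.21 and 0.44; P4ha2, a collagen prolyl hydroxylase, rose from 22.8 to 48.9 CPM in the library labelled DCKO. In cells with 6 or more UMIs of the rule genes the median of HIF targets in that comparison was −0.22.

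Of 18 skeletal transcription factors 14 were tested and 0 were called in either comparison, with medians of −0.13 and −0.01. Perichondrial genes had 0 of 9 called in both, with medians of 0.20 and 0.03. Of the bone matrix genes 6 were tested in each: Omd, osteomodulin, was called higher in the first (9.60 to 20.7 CPM, with an interval from −0.13 to 2.49) and Spp1 in the second (15.6 to 37.3 CPM, 0.27 to 2.33). Col1a1 was at 3545, 4538 and 2982 CPM in the E14.5 control, the library labelled Glut3f/+ and the library labelled DCKO. Twist1 was at 469, 415 and 382 CPM. Lists of this size hold 0 or 1 call at the share over all genes, so these counts do not set them apart. Bmp genes had 0 of 9 called in both comparisons, with medians of −0.06 and 0.05, and insulin-like growth factor and parathyroid hormone signals 0 of 8, with medians of 0.06 and −0.15.

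Genes called higher at 50 CPM and 50 UMIs were ranked in the library labelled Glut3f/+. Tmem100, a membrane protein induced by Bmp in vessels, rose from 12 to 64.0 CPM (2.42, 1.45 to 3.54), the largest rise but for Pcp4, for which 1 cell held 63.6% of the UMIs. Mmp9 rose from 31.2 to 67.9 CPM (1.12, 0.45 to 1.83), Flrt2, a leucine-rich adhesion protein, from 30.0 to 67.0 CPM and Hmcn1, a large matrix protein, from 28.8 to 67.0 CPM. Fhod3, Ndel1, Plec and Gfod2 (57.4% from 1 cell) made up the rest beside Slc2a1. Flrt2 came to 0.45 with no UMI of Matn1 or Acan.

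In that library Sfrp2, a secreted Wnt regulator of the interzone and perichondrium, fell from 186 to 76.8 CPM (−1.28, −1.69 to −0.87), with 40.6% of the control UMIs in 1 cell. Gas1, a Hedgehog co-receptor, fell from 109 to 49.2 CPM (−1.15), with 31.9% of the control UMIs in 1 cell. With the rule set per 10000 UMIs of a cell, Sfrp2 (0.73) and Gas1 (0.08) changed sign. The centromere proteins Cenpf and Cenpa fell from 151 to 59.1 CPM and from 126 to 51.2 CPM. The remaining falls were the long noncoding RNAs Foxd2os, Snhg3 and AI506816, the linker histone Hist1h1e, R3hcc1 and Gm32913. Dusp6, a phosphatase induced by Fgf, was called lower (42.0 to 19.7 CPM), the single call of 5 tested in the Fgf list, which had a median of −0.18 here and −0.07 in the library labelled DCKO.

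After Slc2a1, the largest rise in the library labelled DCKO was that of Tshz2 (ENSMUSG00000047907, chr2:169633013-170071816), a zinc finger factor, from 37.2 to 149 CPM (2.01, 1.42 to 2.63), while other kept cells went from 88.1 to 63.5 CPM. The ratio of Tshz2 was lowest with 3 or more UMIs of the rule genes, at 1.10, and with thinned cells, at 13 against 5 UMIs, its interval included 0. Glul, glutamine synthetase, rose from 25.2 to 66.9 CPM (1.41, 0.65 to 2.22) in members and stood at 28.8 and 27.7 CPM in other kept cells. Egfl6, a matrix protein encoded on the X chromosome, rose from 61.2 to 154 CPM, with 39.2% of the control UMIs in 1 cell. Hexim1, an inhibitor of transcription elongation, rose from 31.2 to 84.9 CPM. Cdkn1a, a cell cycle inhibitor, rose from 31.2 to 81.1 CPM with 42.9% of its UMIs from 1 cell. Tuba1c, Mrpl32, Gm47283 and Col23a1 completed the list. The annotation places Gm47283 on the Y chromosome, although the list of sex-linked genes did not hold it. It was at 592 CPM in the library labelled DCKO, where no Ddx3y was counted. In the E14.5 control, with Ddx3y at 72.0 CPM, it was at 268 CPM. The part of sex in this difference was not tested. With 3 or more UMIs Egfl6 came to 0.32, and with 6 or more UMIs Cdkn1a to 0.27.

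Among the lower genes, Htra1 fell from 64.8 to 18.0 CPM (−1.85, −2.81 to −0.98) and Igfbp7, a secreted binding protein, from 80.4 to 27.0 CPM (−1.57, −2.35 to −0.85), with −1.78 and −1.17 in other kept cells. Fndc1, which had risen between the control ages, fell from 69.6 to 28.3 CPM (−1.30). Myl9, a smooth muscle light chain, fell from 64.8 to 28.3 CPM, and Rai14, an actin-associated protein, from 91.2 to 42.5 CPM. Htra1 was at −0.64 with 3 or more UMIs of the rule genes. Foxd2os, Tomm70a, Hacd1, Snhg3 and Gm32913 were the other genes among the 10 largest falls. Nkd1 was called lower in the Wnt list (32.4 to 12.9 CPM), the single call of 8 tested, whose median was 0.37; the list had a median of −0.23 in the library labelled Glut3f/+, with Sfrp2 as the single call of 7. Of Hedgehog genes, 1 of 7 (Gas1) and 0 of 6 were called, with medians of 0.19 and 0.06.

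The 2 labelled libraries differ by label in the second Glut3 allele, and their direct comparison asks what it adds. Of 5836 genes tested 146 (2.5%) were called higher in the library labelled DCKO and 105 (1.8%) lower, 143 and 81 with an interval off 0, with a median of 0.04 over all genes. TMM scaling gave 114 higher and 135 lower, 6 or more UMIs of the rule genes 76 and 124, and thinning to 3000 UMIs 18 and 29. Higher genes were the larger group under each of the other alternatives. Other kept cells, whose larger sums make the shares not directly comparable, had 11 genes higher and 27 lower of 5766. Of the cell cycle genes, 5 of 15 were called higher, 14 of 15 lay above 0 and the median was 0.78, against −0.10 in other kept cells. With the rule set per 10000 UMIs the median of the cell cycle list was 0.39.

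Mki67 was at 171, 97.2, 50.2 and 121 CPM in members of the 4 libraries. The library labelled Glut3f/+ was the low one and the E13.5 control the high one. Cenpa rose from 51.2 to 207 CPM between the labelled libraries (2.02, 1.56 to 2.50), and Cenpf from 59.1 to 223 CPM (1.91, 1.48 to 2.36), although 1 cell held 40.0% of the lower count. Cenpa was seen in 18 and 28 members (13.1% and 25.7%) and Cenpf in 14 and 20 (10.2% and 18.3%). The intervals do not cover differences between such small sets of cells. Cdc20, Cenpe, Kif20b, Hmmr and Ccnb1, genes of mitosis, were also among the 10 largest rises. Against the E14.5 control the cell cycle list had a median of −0.56 with 13 of 15 below 0 in the first library and 0.37 with 12 of 15 above 0 in the second, so the control lay between them.

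The other rises between the labelled libraries were AI506816, Hat1 and Matn4, a cartilage matrilin (116 to 331 CPM, against 787 to 1161 CPM in other kept cells). Sox4, a factor of progenitor cells, rose from 144 to 308 CPM (1.10, 0.79 to 1.40). Of 8 Wnt genes tested Lrp6, Sfrp1 and Lef1 were called higher and Nkd1 lower, against 2.5% higher and 1.8% lower over all genes. Chondrocyte markers other than Matn1 and Acan had all of 6 tested above 0 in members of the library labelled DCKO, with medians of 0.70 against the E14.5 control and 0.76 against the library labelled Glut3f/+. Col2a1, the main cartilage collagen, was at 421, 379, 370 and 595 CPM in members, 191, 383, 666 and 351 CPM in muscle cells and 109, 176, 175 and 373 CPM in connective tissue cells. The library labelled DCKO was the highest for members and for connective tissue cells. Against the control, the median of chondrocyte markers was −0.05 with 6 or more UMIs of the rule genes and, over 3 genes, −0.00 with thinned cells.

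Falls between the labelled libraries were led by Pcp4, Stmn2, a neuronal tubulin regulator (66.0 to 10.3 CPM), Hmcn1 (67.0 to 14.2 CPM), Tmem100 (64.0 to 15.4 CPM) and Fhod3. Ecrg4 fell from 441 to 184 CPM (−1.26, −1.54 to −0.99), with −0.05 in other kept cells, and Neo1, a guidance and Bmp co-receptor, from 103 to 43.8 CPM. Aqp1, a water channel, Rgs10 and Fndc1 were the others. Bone matrix genes had a median of −0.46, with Spp1 called higher, though not with TMM factors, and Omd lower, and perichondrial genes had −0.15 with 0 of 9 called. HIF targets were all above 0 (9 of 9, median 0.34), with Bnip3, a mitophagy receptor, called higher.

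Of 7 muscle markers 7, 4, 2 and 2 were detected, with a summed level of 23.3, 42.0, 13.8 and 6.44 CPM led by Tnnt1 or Actc1, and of 5 endothelial markers 5, 3, 3 and 3, with 10.2, 7.20, 9.85 and 9.01 CPM. Glial or neuronal markers summed to 4.17, 4.80, 0 and 3.86 CPM, epidermal markers to 9.37, 3.60, 2.95 and 9.01 CPM and mural markers to 83.3, 78.0, 92.5 and 95.2 CPM, most of it Pdgfrb, which fibroblasts share. Other kept cells had 80.7, 167, 158 and 162 CPM of the mural markers. Members with 2 or more UMIs over 25 markers of other lineages were 6.52%, 3.26%, 4.38% and 4.59%, against 16.4%, 11.1%, 14.1% and 9.85% of other kept cells. The fibroblast marker Dcn (2.40 to 31.5 CPM) and the tendon marker Tnmd (8.40 to 32.5 CPM) were called higher in the library labelled Glut3f/+ than in the control. Their part in the differences between libraries was not tested.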

How the data were processed

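The files hold the UMI counts that the authors deposited, 32285 genes by barcode from Cell Ranger 6.1.2 on mm10; the submitters also name Seurat 3, whose output is not used here. Filters and rule were applied to each library by itself. No doublet detection was run, so doublets were removed only as far as the upper limit on genes took them, and their part in the results was not tested beyond the setting without members that carry other-lineage UMIs. Within a library, UMIs of a gene were summed over the cells of a group and divided by all UMIs of those same cells (CPM). A log2 ratio carries the exact conditional interval of its 2 counts; against 0 counts a floor of 3 was used. A gene counted as called at 2-fold or more with 20 CPM and 20 UMIs in 1 group. Named are the 10 largest rises and falls of each comparison among called genes with 50 CPM and 50 UMIs, without rule, mitochondrial and haemoglobin genes and those of a list of sex-linked genes, the 12 leading genes, the rule genes, both transporters and genes of 32 lists. Other genes named were chosen after their values were seen. The members and lists were chosen with earlier results of these data known.

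Coordinates are GENCODE M21, which held 32158 identifiers (99.6%). Alternatives covered the rule (3 or 6 UMIs, a rate per 10000 UMIs, thinning, no cartilage UMI), the filter on cells, members with other-lineage UMIs, TMM factors of edgeR 4.0.16, the mean over cells, the minimum level and the fold. The code was checked on simulated data. Python 3.11.15, numpy 2.4.6, pandas 2.3.3, scipy 1.17.1, matplotlib 3.10.9 and R 4.3.3 were used.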

Additional observations from a re-analysis of the deposited data

Results flagged for a closer look

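These genes are listed because members and other kept cells of the same libraries went in opposite directions, each past its counting interval; in every case the difference between both sets of cells was not tested. Values are log2 ratios, first in members and then in other kept cells.

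Between the control ages, the secreted limb protein Fibin had −2.69 and 0.69.

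For the library labelled Glut3f/+ against the E14.5 control, Flrt2 had 1.16 and −0.27, the formin Fhod3 1.06 and −0.89, and the cytoskeletal linker Plec 1.01 and −0.19. Gm32913 had a bound of −4.46 and 0.45, with all member UMIs of the control in 1 cell.

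For the library labelled DCKO against the E14.5 control, Tshz2 had 2.01 and −0.47, Egfl6 1.34 and −0.48, and the tubulin Tuba1c 1.22 and −0.16. Among lower genes, Gm32913 had −3.65 and 0.73, Hacd1, an enzyme of fatty acid elongation, −1.31 and 0.64, and Myl9 −1.19 and 0.47.

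For the library labelled DCKO against the one labelled Glut3f/+, genes of mitosis were listed: Cenpa had 2.02 and −0.08, Cenpf 1.91 and −0.20, Kif20b 1.76 and −0.10, Cenpe 1.57 and −0.10, and Ccnb1 1.31 and −0.09. Cenpa, seen in the most members of these genes, was found in 28 members labelled DCKO and 18 labelled Glut3f/+.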

How the results depend on the processing

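Counts of called genes were computed again under 12 alternatives, shares of members under the 7 that change the cells or the rule, and ratios of named genes and list medians under 9, wherever the counts gave a value. Of 735 values for named genes 624 stayed within their counting interval, 103 went beyond it and 8 of called genes had the other sign; of 634 list medians 548 stayed within 0.25, 84 went beyond it and 2 that had been 0.5 or more from 0 changed sign. Unless stated, the cause was not tested. Fewer cells leave fewer UMIs, so fewer genes reach 20 UMIs by construction. Shares are given for the E13.5 control, the E14.5 control, the library labelled Glut3f/+ and the library labelled DCKO; both labelled libraries are compared with the E14.5 control unless they are compared with each other.

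With 3 or more UMIs of the rule genes the shares of members were 5.78%, 1.42%, 1.88% and 1.75%. Called genes were 31 higher and 69 lower for Glut3f/+, 65 higher for DCKO, and 71 higher and 51 lower for DCKO against Glut3f/+. With 6 or more UMIs the shares were 1.82%, 0.419%, 0.453% and 0.265%. Called genes were 644 lower for E14.5 against E13.5, 55 higher for Glut3f/+, 54 higher for DCKO and 76 higher and 124 lower for DCKO against Glut3f/+, and the median of chondrocyte markers for DCKO was −0.0467.

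With the rule set per 10000 UMIs the shares were 4.89%, 1.95% and 2.07% in the libraries other than the E14.5 control. Called genes were 73 higher and 59 lower for DCKO against Glut3f/+, and for Glut3f/+ Sfrp2 had 0.73 and Gas1 0.0836.

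With cells thinned to 3000 UMIs the shares were 1.05%, 0.284%, 0.337% and 0.263% in the random draw that was used. Called genes were 91 higher for E14.5 against E13.5, 18 higher and 19 lower for Glut3f/+, 14 higher and 26 lower for DCKO, and 18 higher and 29 lower for DCKO against Glut3f/+. The value had the other sign for Ralgps2 (0.68) and Tshz1 (0.0381) between the ages, Pcp4 (−0.0875) for Glut3f/+, Snhg3 (0.88) and the median of chondrocyte markers (−0.00227) for DCKO, and Ccnb1 (−1.61) between the labelled libraries. These values show no change of direction. Thinning left 24, 34 and 26 members in the E14.5 libraries; Ralgps2, Tshz1 and Pcp4 had 0 UMIs in 1 group, so their values are bounds set by the floor of 3 counts, and Snhg3 with 4 against 2 UMIs and Ccnb1 with 1 against 4 had intervals that include 0.

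With 0 UMIs of Matn1 and Acan the shares were 2.94%, 0.634%, 0.879% and 0.690%; called genes were 66 lower for Glut3f/+ and 53 lower for DCKO, where Gm32913 had 0.35, a bound set by the floor against 0 UMIs. With 1000 to 6000 genes and at most 5% mitochondrial UMIs the E13.5 share was 4.42%. TMM gave 273 lower genes for E14.5 against E13.5 and 114 higher and 135 lower for DCKO against Glut3f/+, and a minimum of 10 CPM gave 720.

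With no minimum level, called genes were 1542 higher and 1358 lower for E14.5 against E13.5, 755 and 780 for Glut3f/+, 869 and 668 for DCKO, and 830 and 699 for DCKO against Glut3f/+; the setting counts weakly expressed genes by construction. At 1.5-fold, a lower bar, they were 488 and 1382, 388 and 478, 484 and 412, and 564 and 403. Depth limits what can be said of the 92 to 137 members of each E14.5 library, where a gene at 20 CPM rests on about 20 UMIs.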

Other observations

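Immediate-early and heat-shock genes, which cells switch on during tissue handling as well as on growth signals, were abundant in the Runx2, Alpl and Dlx5 cells and highest in the library labelled Glut3f/+. The 14 genes summed to 4292, 6071, 8300 and 5843 CPM in members of the E13.5 control, the E14.5 control, the library labelled Glut3f/+ and the library labelled DCKO. Other kept cells had 4431, 5217, 5233 and 5044 CPM. Fos was at 945, 1519, 2461 and 1499 CPM in members. Jun rose from 413 to 1160 CPM between the control ages, and Ier3 and Hspa1a rose as well. These were the 3 genes called higher of 13 tested, against 3.16% of all genes, and the median log2 ratio of the list was 0.58. In either labelled library 0 of 13 were called against the E14.5 control, with medians of 0.32 and −0.02. How much of this comes from handling of the tissue was not tested.

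The 13 protein-coding genes of the mitochondrial genome summed to 29065, 31742, 34946 and 31312 CPM in members, led by mt-Atp6, against 28100.2, 24018, 27202 and 22476 CPM in other kept cells. Members were thus the higher group in each library, by the most in the libraries of E14.5.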
